A study of Rattus norvegicus with 138 samples.

Results

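S100a1, S100a4, S100a6, S100a10 and S100a11 encode S100 proteins, small calcium-binding proteins with a pair of EF-hand motifs that are best known in neutrophils for S100a8 and S100a9 but are made by many other cells. The 5 genes were taken by symbol from a table of 16181 gene symbols measured by RNA-seq in the rat tibialis anterior (TA) muscle after volumetric muscle loss (VML), and all 5 had values. An S100 protein acts as a dimer that, in most members, opens on binding calcium and then grips a partner protein. S100a1 is made in striated muscle fibers and binds proteins of calcium handling such as the sarcoplasmic reticulum pump. S100a4 is made by fibroblasts, macrophages and other motile cells and binds non-muscle myosin, S100a6 (calcyclin) is high in dividing and fibroblast-like cells, S100a10 binds annexin A2 without the need for calcium, and S100a11 binds annexin A1.

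The animals were male Lewis rats of about 4 months, an inbred wild-type strain. VML was made in the TA of one leg with a 6 mm biopsy punch, and the wound either received no repair or was filled at once with a minced muscle graft (MMG) cut from the excised tissue of the same rat. Injured and contralateral (unoperated, opposite leg) TA muscles were taken at 3, 7, 14 or 28 days post injury (DPI), from rats with or without running. Control muscle was the left and right TA of 2 rats that the labels call sham at day 0 and the study describes as unoperated, so the 4 control muscles stand for 2 animals. Without repair and without running, injured muscle came from 3, 8, 4 and 4 rats at 3, 7, 14 and 28 DPI and contralateral muscle from 2, 4, 2 and 2 rats. Grafted injured muscle of non-running rats came from 7, 8, 4 and 4 rats with 2, 6, 2 and 2 contralateral muscles. Running rats gave 8, 4, 4 and 2 injured muscles without repair and 6, 4, 4 and 2 with a graft, and 2 contralateral muscles in each arm at 3, 7 and 14 DPI. A muscle is a mixture, so in these bulk samples fewer cells of a type and less RNA per cell cannot be told apart.

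Levels are in TPM, a unit that divides reads by transcript length and scales each library to one total, so that different genes can be compared within a muscle. The depth of each library is unknown. Of 138 libraries, 9 had labels that contradict their titles or each other, and 13 of the others had only 901 to 5712 symbols above 1 TPM and were dropped. The remaining 116 libraries had 7866 to 10948 symbols above 1 TPM and covered 114 muscles of 78 rats. The summed level of 9 fast fiber genes was 191026 to 251857 TPM in control muscle, so the libraries were of fast skeletal muscle as labelled. In non-repaired injured muscle at 3 DPI that sum was 35936 to 49232 TPM, while 8 macrophage genes summed to 4300 to 5645 TPM against 14.4 to 34.4 in control.

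The sequence just before the transcription start was available for S100a4, S100a6 and S100a11, which are 3 of the 4 genes that rose after injury. The RefSeq promoters on build GRCr8 are shown as the 250 bases that end at the start, 5′ to 3′ on the plus strand, because the level of each of these genes in injured muscle is described next. S100a4 and S100a6 lie close together at chr2:178388279-178388528 and chr2:178398287-178398536, and the S100a11 promoter is at chr2:181874882-181875131. Capitals mark TATAAA in S100a4 and GGGCGG in the other two.
S100a4: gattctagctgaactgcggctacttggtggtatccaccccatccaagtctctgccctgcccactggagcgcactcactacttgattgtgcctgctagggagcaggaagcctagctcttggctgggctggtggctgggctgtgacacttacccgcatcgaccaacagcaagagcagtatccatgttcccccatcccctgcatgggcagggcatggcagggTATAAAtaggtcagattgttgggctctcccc
S100a6: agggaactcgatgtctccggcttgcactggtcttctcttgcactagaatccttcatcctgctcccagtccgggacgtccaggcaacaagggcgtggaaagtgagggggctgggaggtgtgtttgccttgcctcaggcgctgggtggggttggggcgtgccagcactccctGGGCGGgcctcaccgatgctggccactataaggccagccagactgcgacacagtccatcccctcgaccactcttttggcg
S100a11: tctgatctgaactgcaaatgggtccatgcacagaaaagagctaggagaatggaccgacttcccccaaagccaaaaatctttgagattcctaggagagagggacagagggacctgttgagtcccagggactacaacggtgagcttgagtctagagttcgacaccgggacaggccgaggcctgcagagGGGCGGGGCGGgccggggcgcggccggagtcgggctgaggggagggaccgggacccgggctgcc

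The TATAAA of S100a4 began 31 bases before the start, and 12.9% of 33469 rat promoters of this length hold these letters on either strand. GGGCGG was found once in S100a6, 80 bases before the start, and as 2 overlapping copies in S100a11 at 64 and 59 bases, and 30.5% of promoters hold it. None of the 3 windows held TGANTCA (6.34% of all promoters), the letters CCAAT (34.0%) or the CArG box (1.5%). The letters CANNTG were found in S100a11 alone (65.5% of all promoters). GC content was 57.6% for S100a4, 62.4% for S100a6 and 62% for S100a11, against a median of 51.2% over all promoters.

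In control muscle S100a1 was the highest of the 5 genes and S100a4 the lowest. S100a1 averaged 108 TPM ± 6.29 (SD, n = 4 muscles), S100a6 85.6 ± 27.9, S100a11 50.5 ± 7.05, S100a10 47.8 ± 9.0 and S100a4 29.2 ± 7.71. S100a11 and S100a10 differed by less than their spread, and the highest S100a6 value of 121 TPM was above every S100a1 value. Together the 5 genes made up 321 TPM, or 0.0321% of the library, of which S100a1 held 34.3%.

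After injury this order changed. In non-repaired muscle at 3 DPI the 5 genes summed to 8925 TPM (0.892% of the library), with S100a11, S100a6 and S100a4 at 30.4%, 26.6% and 26.0% of the sum, S100a10 at 16.5% and S100a1 at 0.421%. By 28 DPI the sum was 1851 TPM and S100a4 was the highest, with 32.5% of it, while S100a1 held 3.94%. In running rats without repair S100a6 was the highest at 28 DPI, with 32.3% of 1659 TPM. The ranges of S100a11, S100a6 and S100a4 over the 3 muscles overlapped at 3 DPI, as did those of S100a4 and S100a6 at 28 DPI, so their places in these orders are within the spread.

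**Figure D1:**
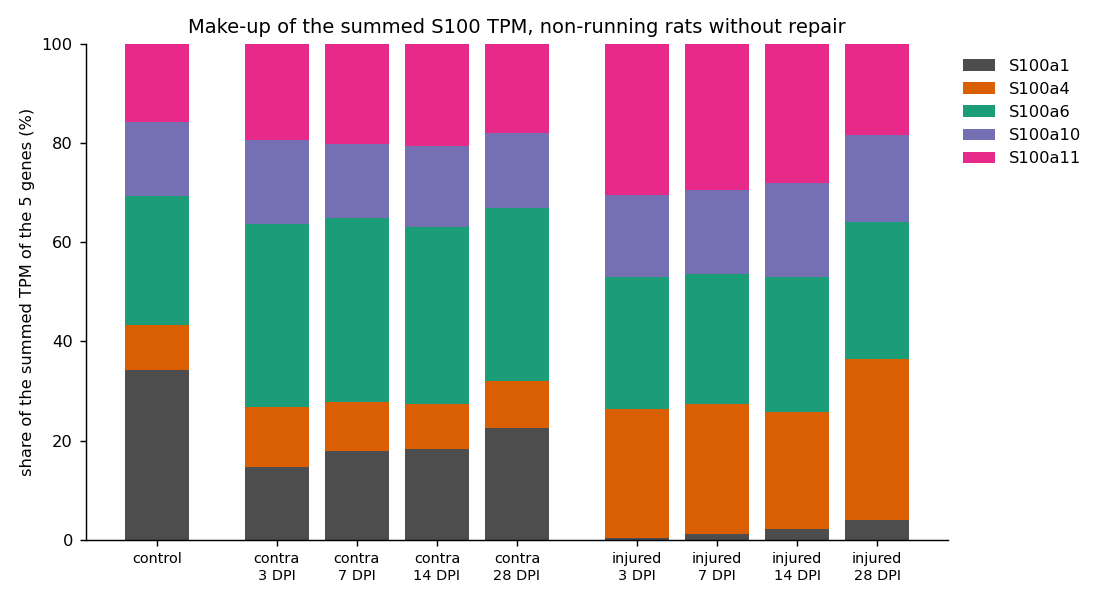
Share of each of the 5 genes in their summed TPM (y axis, percent) in control, contralateral and non-repaired injured muscle of non-running rats (x axis, group means). S100a1 takes 34.3% of the control bar and 0.421% of the injured bar at 3 DPI, and S100a4 takes 32.5% of the injured bar at 28 DPI.

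S100a1, the member made in striated muscle fibers, was the only one of the 5 genes that fell after injury, and it was still below control at 28 DPI. Its level was 112, 110, 98.9 and 112 TPM in the control muscles and 30.5, 35.1 and 33.7 TPM in the injured muscles at 3 DPI. At 7 DPI it ran from 25.4 to 62.6 TPM with a median of 48.8 over 8 muscles, at 14 DPI it was 51.6, 46.4, 48.9 and 44.1 TPM, and at 28 DPI 69.9, 80.2, 65.9 and 71.0 TPM. All injured muscles of all 4 days lay below the lowest control muscle. Relative to control, the log2 fold change of TPM + 1 was -1.68 ± 0.20 (SE), -1.27 ± 0.16, -1.16 ± 0.18 and -0.59 ± 0.18 at 3, 7, 14 and 28 DPI. The first 3 passed the thresholds of limma (adjusted p under 0.05 and a log2 fold change beyond 1 in either direction, here adjusted p = 8.89e-13, 6.7e-12 and 2.98e-08), and the last passed the p alone (adjusted p = 0.00303). Dividing TPM by median-of-ratios size factors, which centers all genes rather than the total, gave -1.26 at 28 DPI, past both thresholds. Among the 4 rats at 7 DPI numbered TS5.105 to TS5.126 alone the change was -0.97, short of the fold limit.

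The median log2 fold change of the fast fiber genes was -2.70 at 3 DPI, below that of S100a1, and -0.57 at 14 DPI, above that of S100a1. All 9 fell at 3 DPI, and over the later days 7, 3 and 1 of them did, beside 4.24%, 2.42%, 0.547% and 0.212% of all genes called lower. Against Acta1, the actin of skeletal muscle fibers, the mean log2 ratio of S100a1 in the same muscle was -8.89 in control, -8.66 at 3 DPI, then -9.78 by 14 DPI and -9.04 by 28 DPI, and in contralateral muscle at 14 DPI it was -9.38. These ratios were chosen after the levels were seen and were not tested.

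S100a4, the partner of non-muscle myosin, showed the largest change of the 5 genes on every day. It was 29.6, 28.6, 38.8 and 19.9 TPM in control muscle and 3654, 1813 and 1566 TPM in injured muscle at 3 DPI. At 7 DPI it ran from 824 to 1743 TPM with a median of 1387, at 14 DPI it was 461, 447, 633 and 516 TPM, and at 28 DPI 414, 537, 770 and 713 TPM. Injured and control muscles did not overlap, and the values at 28 DPI overlapped those at 14 DPI. On the log2 scale S100a4 was higher than in control by 6.21 ± 0.28, 5.43 ± 0.23, 4.12 ± 0.26 and 4.33 ± 0.26 on the 4 days in order, with adjusted p of 1.29e-34, 3.12e-37, 1.4e-24 and 1.49e-25 in limma. Mean TPM was 80.3 times control at 3 DPI and 20.8 times at 28 DPI.

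S100a6, the calcyclin of dividing and fibroblast-like cells, was 87.2, 80.3, 121 and 53.5 TPM in control muscle. At 3 DPI the injured muscles held 3607, 2149 and 1444 TPM, at 7 DPI 667 to 2022 TPM with a median of 1509, at 14 DPI 536, 545, 712 and 594 TPM, and at 28 DPI 489, 494, 470 and 585 TPM. All of them lay above the highest control muscle. The log2 fold changes of 4.75 ± 0.30, 3.93 ± 0.24, 2.84 ± 0.28 and 2.61 ± 0.28 had adjusted p of 4.34e-26, 5.68e-27, 3.13e-15 and 1.84e-13 in limma.

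S100a10, the partner of annexin A2, was 45.2, 50.9, 58.3 and 37.0 TPM in control muscle. It was 1978, 1323 and 1023 TPM at 3 DPI, 587 to 1105 TPM with a median of 840 at 7 DPI, 374, 396, 510 and 388 TPM at 14 DPI and 289, 306, 320 and 377 TPM at 28 DPI. No injured muscle came near the control range. Its log2 fold changes were 4.85 ± 0.22, 4.09 ± 0.17, 3.11 ± 0.20 and 2.74 ± 0.20, with adjusted p of 3.81e-35, 7.19e-37, 2.52e-24 and 6.8e-21 in limma.

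S100a11, the partner of annexin A1, had the highest mean of the 5 genes at 3, 7 and 14 DPI in non-repaired, non-running rats, though its range overlapped that of S100a6 on each of these days, and it kept the lowest share of its 3 DPI level at 28 DPI. The control muscles held 47.7, 43.6, 60.2 and 50.6 TPM and the injured muscles at 3 DPI 3881, 2558 and 1679 TPM. At 7 DPI the values ran from 791 to 2071 TPM with a median of 1670, at 14 DPI they were 508, 624.8, 788 and 540 TPM, and at 28 DPI 322, 319, 285 and 428 TPM. Every one was above control, and those of 28 DPI lay below all those of 14 DPI. The log2 fold changes were 5.64 ± 0.31, 4.79 ± 0.25, 3.57 ± 0.29 and 2.71 ± 0.29, with adjusted p of 1.19e-29, 2.71e-31, 3.6e-19 and 1.67e-13 in limma.

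**Figure D2:**
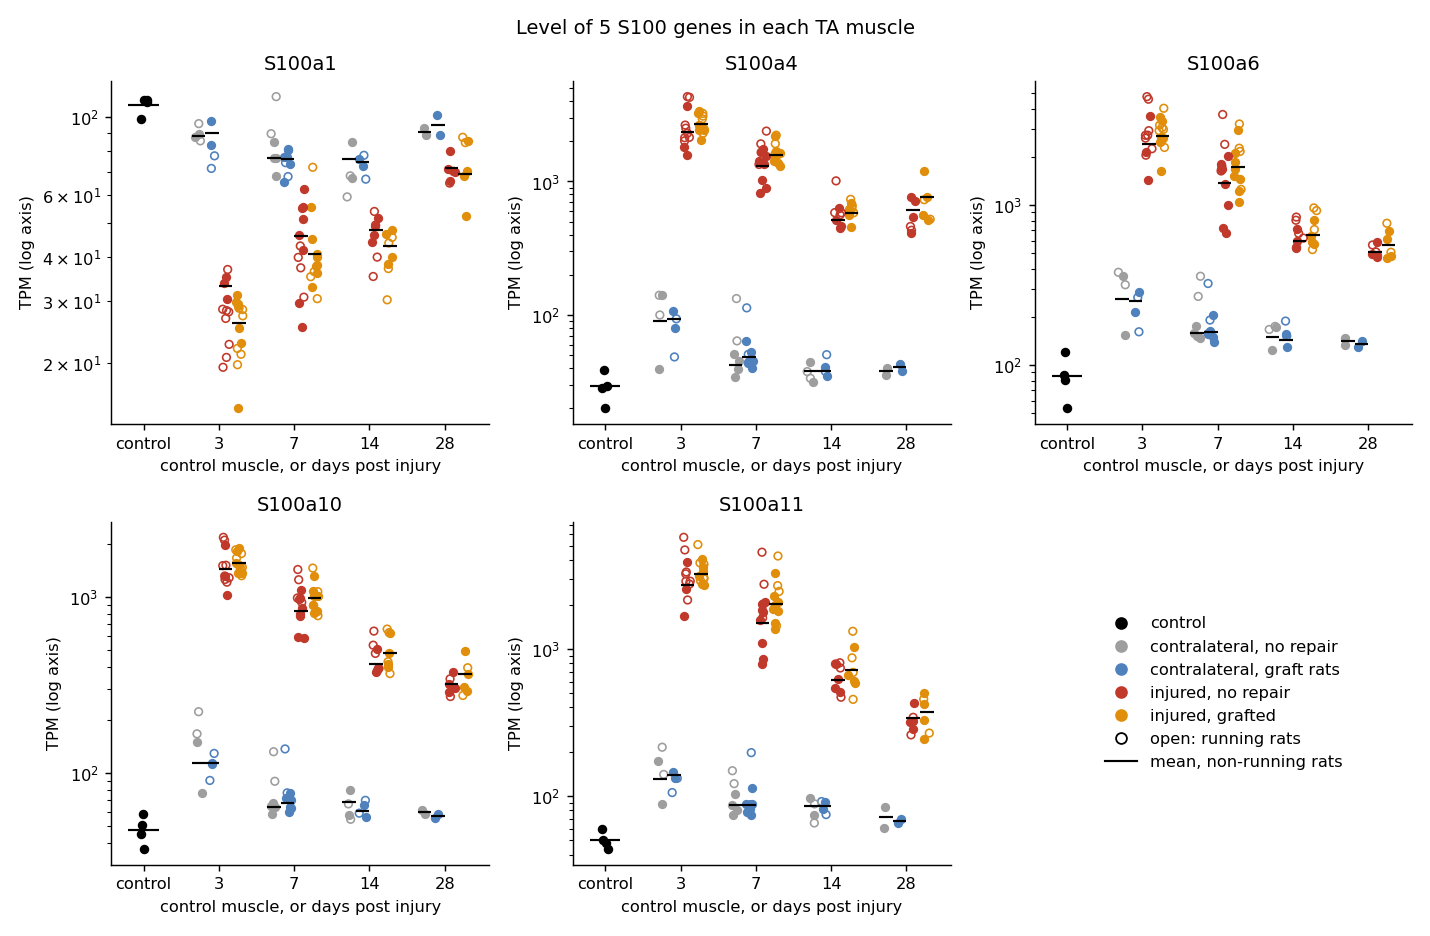
TPM of each gene (y axis, log scale) in every muscle, by control or days post injury (x axis), with color for muscle type and repair, open circles for running rats and black lines for means of non-running rats. The 76 injured muscles lie above all contralateral muscles for S100a4, S100a6, S100a10 and S100a11, and S100a1 runs the other way.

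Over the 4 days, 19 of the 20 member values against control passed both thresholds. The share of all 11328 tested genes that did so in either direction was 52.6%, 48.1%, 25.5% and 21.3% at 3, 7, 14 and 28 DPI, so a call by itself was common in this comparison. Calls of a higher level made up 48.3%, 45.6%, 25% and 21.1% of all genes, and calls of a lower level, the side of S100a1, 4.24%, 2.42%, 0.547% and 0.212%. The 4 days share the same control muscles. The median log2 fold change of all tested genes was 0.96, 0.91, 0.53 and 0.52, and the 4 rising members stood 2.10 to 5.25 above it while S100a1 stood at -1.10 to -2.64 relative to it. With size factors that median was 0.09 at 3 DPI, and the 4 members stayed past both thresholds on every day.

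Against contralateral muscle of the same day, 17 of 20 member values passed, with 38.2%, 47.4%, 21.1% and 13.3% of all genes called. S100a4 was higher by 4.85, 4.88, 3.73 and 3.94 on the log2 scale at 3, 7, 14 and 28 DPI, S100a6 by 3.24, 2.99, 2.01 and 1.85, S100a10 by 3.67, 3.66, 2.59 and 2.39, and S100a11 by 4.36, 4.03, 2.82 and 2.22. Without the contralateral muscle of rat TS5.010 the values at 3 DPI were 5.75 for S100a4, 3.85 for S100a6, 4.15 for S100a10 and 4.84 for S100a11, all still called. S100a1 was lower by a log2 fold change of -1.40 at 3 DPI, which passed, and its values of -0.78, -0.65 and -0.34 at 7, 14 and 28 DPI stayed short of the fold limit. With size factors the S100a1 changes at 7 and 14 DPI were -1.85 and -1.31 and passed. The 4 contralateral muscles at 7 DPI were all from rats TS5.105 to TS5.126, while 4 of the 8 injured muscles were from rats TS5.001 to TS5.032. Within the 4 rats with both muscles at 7 DPI the S100a1 changes were -0.72, -0.46, -0.60 and -0.12, without size factors.

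The separation held in every arm of the study. Over all repair and running groups, the 76 injured muscles ran from 414 to 4322 TPM for S100a4 and the 34 contralateral muscles from 31.6 to 140 TPM. For S100a6 the ranges were 468 to 4762 and 125 to 380 TPM, for S100a10 273 to 2190 and 54.7 to 224 TPM, and for S100a11 244 to 5730 and 60.7 to 215 TPM. Each of these 4 genes was thus higher in all 76 injured muscles than in any contralateral muscle, and in 34 of 34 rats with both muscles measured. S100a1 was lower in the injured muscle of all 34 rats, and 63 of 76 injured muscles lay below the lowest contralateral value of 59.3 TPM.

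**Figure D3:**
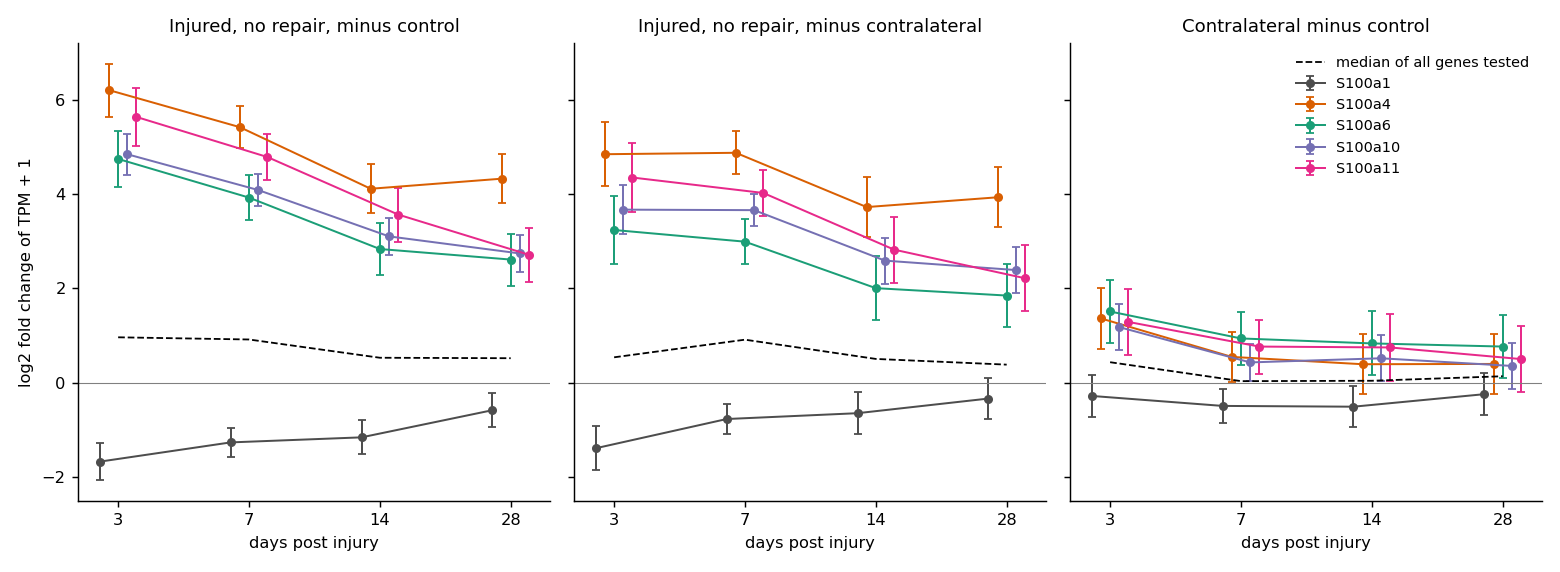
Log2 fold change of TPM + 1 (y axis) by days post injury (x axis) for the 5 genes, in injured muscle against control, injured against contralateral, and contralateral against control, with 95% confidence intervals from limma and the median of all tested genes as a dashed line. S100a4 is the highest line in both injured comparisons on all 4 days, and S100a1 lies below 0 in all panels.

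Between days, 16 of 30 member comparisons in non-repaired injured muscle of non-running rats passed both thresholds. All genes tested gave 7.34% calls for 7 against 3 DPI, 23.8% for 14 against 3, 28.8% for 28 against 3, 6.82% for 14 against 7, 16.4% for 28 against 7 and 0.459% for 28 against 14. From 3 to 7 DPI the 4 rising members changed by -0.76 to -0.85 on the log2 scale and none passed the fold limit, with adjusted p of 0.000939 to 0.0103 in limma. Without the muscle of rat TS5.018 at 3 DPI, S100a4, S100a6 and S100a11 changed by -1.03, -1.14 and -1.15 and passed. From 3 to 14 DPI all 4 fell, with changes of -1.74 for S100a10 to -2.10 for S100a4. S100a1 was 0.52 higher at 14 than at 3 DPI (adjusted p = 0.0166, short of the fold limit in limma) and rose by 1.09 from 3 to 28 DPI (adjusted p = 8.41e-07 in limma). With size factors 11 of the 30 passed, and the falls of S100a4, S100a6 and S100a11 from 7 to 14 DPI were -0.91, -0.70 and -0.83, short of the fold limit. The 3 muscles of non-running rats at 3 DPI were all from rats numbered TS5.001 to TS5.032. The 4 muscles of that range at 7 DPI held 1425 to 1743 TPM of S100a4 and 1777 to 2071 TPM of S100a11, within or below the ranges at 3 DPI. Rats at 14 DPI were numbered TS5.129 to TS5.144 and those at 28 DPI TS5.073 to TS5.088. For changes from 3 DPI to 14 or 28 DPI, the day and the range of rat numbers cannot be told apart.

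S100a11 had the lowest share of its early level left at 28 DPI. Mean S100a11 at 28 DPI was 12.5% of its level at 3 DPI, against 21.2% for S100a6, 22.4% for S100a10 and 26.0% for S100a4. The change from 14 to 28 DPI was -0.85 ± 0.29 for S100a11 and 0.21 ± 0.26 for S100a4, and neither passed in limma (adjusted p = 0.123 and 0.801). None of the 5 members passed between these days, and 2 of 5 had an unadjusted p under 0.05. Within each muscle the ratio of S100a4 to S100a11 does not depend on how the library is scaled. That ratio was 0.716 to 0.957 in the 4 non-repaired muscles at 14 DPI and 1.28 to 2.70 in the 4 at 28 DPI. In grafted muscle it was 0.672 to 1.01 at 14 DPI and 1.56 to 2.40 at 28 DPI. The mean log2 ratio was higher at 28 than at 14 DPI by 1.07 without repair and by 1.27 with a graft, and the groups did not overlap in either arm. A two-sided exact permutation test gave p = 0.0286 in each arm, which is the smallest that the 70 splits of 4 against 4 muscles allow, and the value adjusted over 48 such ratio tests was 0.0914. None of the 48 passed an adjusted p of 0.05, and the lowest was 0.0646. That value was also reached by shifts before 14 DPI. From 7 to 14 DPI the log2 ratio of S100a4 to S100a10 changed by -0.32 without repair (exact p = 0.00808) and by -0.38 with a graft (exact p = 0.00404), and that of S100a10 to S100a11 by 0.43 with a graft (exact p = 0.00808). It was reached as well by S100a4, S100a6 and S100a10 against S100a11 from 3 to 28 DPI with a graft, at 1.24, 0.89 and 1.02 (exact p = 0.00606 each).

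In running rats the same ratio was 0.739 to 1.25 at 14 DPI and 1.26 to 1.77 at 28 DPI without repair, and 0.557 to 1.39 and 1.60 to 1.94 with a graft, with 4 and 2 muscles each. Control muscle had a ratio of 0.393 to 0.655. S100a6 and S100a10 also stood higher against S100a11 at 28 than at 14 DPI, by 0.63 and 0.49 on the log2 scale without repair and by 0.74 and 0.56 with a graft, again without overlap and with the same exact p of 0.0286. The ratio of S100a6 to S100a10 overlapped between these days in both arms, with changes of 0.14 and 0.19 (exact p = 0.0571 and 0.0857), and that of S100a4 to S100a6 overlapped without repair (0.44, exact p = 0.114) but not with a graft (0.53, exact p = 0.0286). S100a4 also stood higher against S100a10, by 0.58 without repair and 0.72 with a graft, without overlap and with exact p = 0.0286 in each arm. The ratios were chosen after the levels were seen. All muscles at 28 DPI came from rats numbered TS5.073 to TS5.088 and all those at 14 DPI from TS5.129 to TS5.144, so the day and the range of rat numbers cannot be told apart here.

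**Figure D4:**
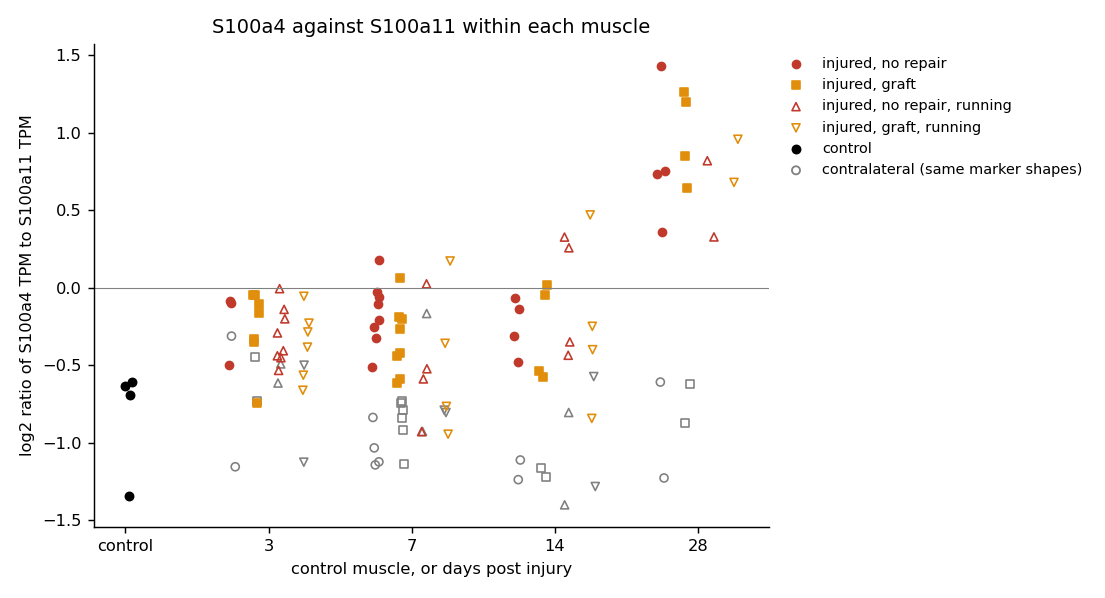
Log2 ratio of S100a4 TPM to S100a11 TPM within each muscle (y axis) by control or days post injury (x axis), with marker shape for arm, filled or open color for injured muscle and grey for contralateral muscle. All 12 injured muscles at 28 DPI lie above 0, with ratios of 1.26 to 2.70.

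Contralateral muscle stood much nearer to control than injured muscle did. In non-repaired, non-running rats S100a6 and S100a11 lay above the control range and S100a1 below it on all 4 days, S100a10 lay above it at 3, 7 and 28 DPI, and S100a4 overlapped control from 7 DPI on. At 3 DPI the contralateral muscles of the 2 non-repaired rats held 140 and 39.5 TPM of S100a4, 360 and 154 TPM of S100a6, 151 and 77.1 TPM of S100a10, and 174 and 88.03 TPM of S100a11. The first value of each pair is from rat TS5.010 and is the higher one in all 4 genes. All 4 genes passed against control at 3 DPI, with log2 fold changes of 1.36, 1.51, 1.18 and 1.29 and adjusted p of 0.000522, 0.000314, 0.000119 and 0.00222 in limma, where 6.43% of all genes were called. Without the muscle of rat TS5.010 the changes were 0.46, 0.90, 0.70 and 0.80 and none passed. With size factors they were 0.81, 0.94, 0.61 and 0.72, again short of the fold limit.

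At 7, 14 and 28 DPI no member passed in contralateral muscle, with 0.803%, 0.715% and 0.185% of all genes called, though 14 of the 20 values over all 4 days had an unadjusted p under 0.05 in limma. S100a6 was 148 to 175 TPM in the 4 contralateral muscles at 7 DPI and above all 4 control muscles. Its log2 fold change was 0.94 ± 0.28 (adjusted p = 0.0237 in limma), just short of the fold limit. Without the left control muscle of rat TS4.038 the change was 1.12 (adjusted p = 0.013 in limma) and passed. With a covariate for the range of rat numbers S100a6 and S100a11 passed at 7 DPI, at 1.54 (adjusted p = 0.000175 in limma) and 1.2 (adjusted p = 0.00613). All 4 of these contralateral muscles were from rats TS5.105 to TS5.126, so the covariate was set by other groups, injured ones among them. S100a6 averaged 1797 TPM in non-repaired injured muscle of rats TS5.001 to TS5.032 and 931 in rats TS5.105 to TS5.126. In contralateral muscle of grafted rats it averaged 153 TPM in the lower-numbered range and 167 in the higher. These calls therefore cannot be read as a contralateral change. Over the mean of the 4 days S100a6 was higher by 1.01 ± 0.24 (adjusted p = 0.00199), with 1.24% of all genes called, and the value fell to 0.81 without the control muscle of rat TS4.038 (right) and to 0.86 without the contralateral muscle of rat TS5.010, both short of the fold limit. It was also just short, at 0.952 to 0.999, without the right control muscle of rat TS4.037 or the contralateral muscle of rat TS5.074, TS5.105 or TS5.129. Averaging the 2 control muscles of each rat gave 0.95 (adjusted p = 0.0815 in limma). S100a1 was -0.39 ± 0.15 over the same mean (adjusted p = 0.0788 in limma). Over all 34 contralateral muscles the lowest S100a6 value, 125 TPM, was above the highest control value of 121 TPM. The lowest S100a11 value, 60.65 TPM, was just above the highest control value of 60.18 TPM. Control rats were numbered TS4.037 and TS4.038 and all other rats TS5, so a difference from control and the rat series cannot be told apart. Injured against control shares this limit.

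Markers of other cells moved in the same muscles. At 3 DPI, 7 of 8 macrophage, 8 of 8 fibroblast, 2 of 6 neutrophil and 2 of 5 Schwann cell genes passed in contralateral muscle against control, beside 6.43% of all genes. These rest on the same 2 muscles, and rat TS5.010 held the higher sum of each of the 4 lists. The macrophage sum was 183 TPM in rat TS5.010 and 67.7 TPM in rat TS5.017, against 14.4 to 34.4 in control, and the fibroblast sum was 1264 and 554 TPM against 71.2 to 223. The neutrophil sum was 107 and 10.95 TPM against 2.02 to 7.94, and the Schwann cell sum 69.9 and 42.4 TPM against 13.1 to 24.9. Their part in the S100 values was not tested.

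No member passed both thresholds for the minced graft against no repair. Grafted and non-repaired injured muscles overlapped for all 5 genes on all 4 days, and 0 of 20 member values passed, where 0.00883%, 0.0883%, 0.0265% and 0% of all genes were called and 2 of the 20 had an unadjusted p under 0.05 in limma. The largest was S100a11 at 7 DPI, 1370 to 3280 TPM with a graft against 791 to 2071 without, a log2 fold change of 0.47 with a 95% confidence interval of 0.06 to 0.87 (adjusted p = 0.126 in limma). Among rats numbered TS5.105 to TS5.128 alone it was 0.72 (adjusted p = 0.0398), still short of the fold limit, and among those numbered TS5.001 to TS5.032 it was 0.22 (adjusted p = 1.00). Averaged over the 4 days, S100a4 was 0.26 higher with a graft (0.02 to 0.50), S100a6 0.21 (-0.04 to 0.47), S100a10 0.19 (0.01 to 0.38) and S100a11 0.28 (0.01 to 0.54), and S100a1 was -0.18 (-0.35 to -0.01). Of these 5 members, 4 had an unadjusted p under 0.05 in limma. Adjusted p in limma ran from 0.0883 to 0.18, none passed where 0.0265% of all genes did, and the median of all genes in this contrast was 0.12. Against the contralateral muscles of grafted rats as a group, grafted muscle gave 17 of 20 passing values, with 44%, 46.2%, 26.1% and 19.1% of all genes called, and S100a1 again passed only at 3 DPI (-1.79). With size factors all 20 passed, with S100a1 at -1.83, -1.48 and -1.07 at 7, 14 and 28 DPI. No member passed in the test of whether the injury effect differed with repair, which called 0% of all genes on every day and gave 0 of 20 members an unadjusted p under 0.05.

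In injured muscle running gave no passing member either. Without repair 0 of 20 values passed, where 0.0441%, 0%, 0.0177% and 0.0177% of all genes were called and 4 of the 20 had an unadjusted p under 0.05 in limma. At 7 DPI S100a6 was 1633 to 3682 TPM in 4 running rats and 667 to 2022 TPM in 8 others, a log2 fold change of 0.82 (0.34 to 1.30, adjusted p = 0.117), and S100a11 was 1624 to 4540 against 791 to 2071 TPM, a change of 0.84 (0.34 to 1.33, adjusted p = 0.117). All running rats at 7 DPI were numbered TS5.001 to TS5.032, and among non-running rats those of this range were the higher ones. S100a6 was 1672 to 2022 TPM in the 4 non-running rats of that range and 667 to 1347 TPM in the 4 numbered TS5.105 to TS5.126, and S100a11 was 1777 to 2071 against 791 to 1562 TPM. Within the range TS5.001 to TS5.032 the running differences were 0.32 for S100a6 and 0.39 for S100a11, with adjusted p of 1.00 in limma. Over the mean of the 4 days S100a6 was 0.40 higher with running (0.12 to 0.68, adjusted p = 0.334 in limma). No member passed over that mean where 0% of all genes did, and 3 of 5 had an unadjusted p under 0.05 in limma.

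With a graft, no change with running was detected in any member on any day, with 0% of all genes called on each day and 0 of 20 members at an unadjusted p under 0.05 in limma. The log2 fold changes ran from -0.22 for S100a4 at 28 DPI to 0.37 for S100a11 at 7 DPI. The graft effect did not differ detectably with running for any member either, where 0.00883% of all genes were called at 3 and at 28 DPI and 0% at 7 and 14 DPI, with 0 of 20 members at an unadjusted p under 0.05. In contralateral muscle of non-repaired rats running gave 0 calls in 15 member values, with 0.194%, 0.0441% and 0% of all genes called at 3, 7 and 14 DPI and 4 of the 15 at an unadjusted p under 0.05. Without the muscle of rat TS5.010 the S100a4 and S100a10 differences at 3 DPI were 1.56 (adjusted p = 0.036) and 1.32 (adjusted p = 0.024) in limma and passed. At 7 DPI S100a4 was 1.12 higher with running (0.48 to 1.76, adjusted p = 0.113), but all running rats there were numbered TS5.001 to TS5.032 and the non-running ones TS5.105 to TS5.126, so running and the range of rat numbers cannot be told apart.

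**Figure D5:**
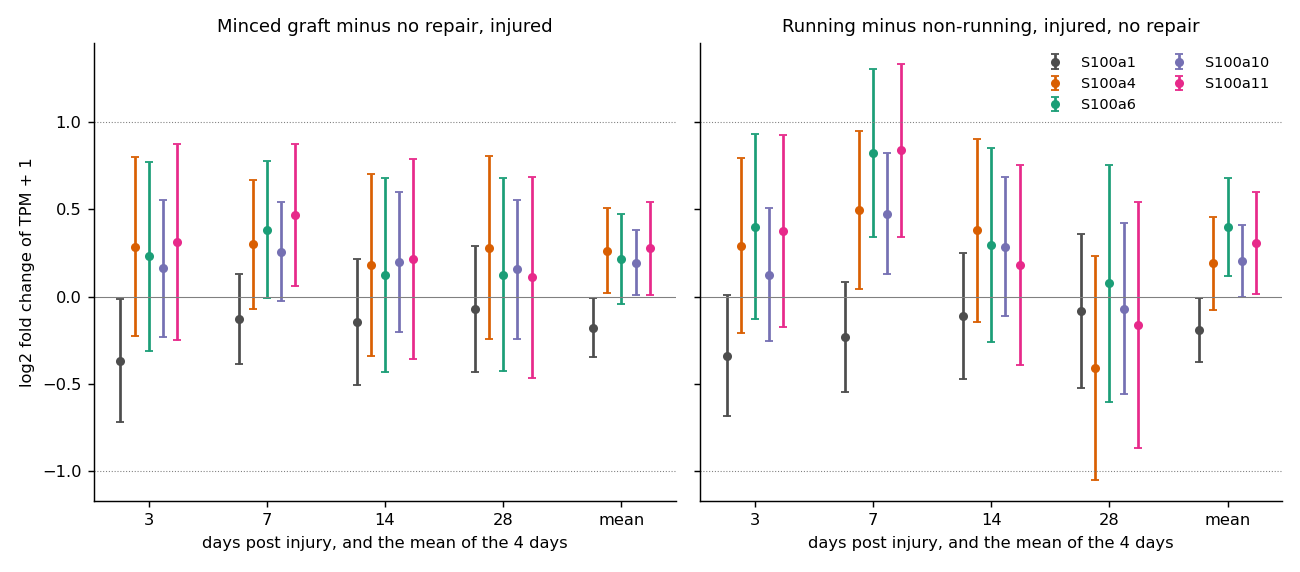
Log2 fold change of TPM + 1 (y axis) for minced graft against no repair and for running against non-running in injured muscle, by days post injury and for the mean of the 4 days (x axis), with 95% confidence intervals from limma and dotted lines at the fold limits of 1 and -1. The highest point is S100a11 at 7 DPI in the running panel, 0.84.

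Changes among the partner genes of the 5 members ran in both directions. Of 10 partners with values, 4, 5, 3 and 3 rose against control at 3, 7, 14 and 28 DPI and 1, 1, 1 and 0 fell, where 48.3%, 45.6%, 25% and 21.1% of all genes were called higher, so the partners' shares were near that of all genes. Their log2 fold changes had a median of 0.85, 0.97, 0.50 and 0.73, near that of all genes. Anxa2, the annexin that pairs with S100a10, went from 16.2 TPM in control to 869 at 3 DPI and 112 at 28 DPI, log2 fold changes of 5.64 and 2.75 that passed. Anxa1, the annexin that pairs with S100a11, went from 9.20 to 469 and 79.4 TPM, changes of 5.66 and 3.12 that passed. Myh9, the non-muscle myosin that S100a4 binds, went from 8.17 to 48.5 and 21.3 TPM and passed at 2.36 and 1.36. Atp2a1, the calcium pump of fast fibers and a partner of S100a1, went from 19086 to 2977 and 11012 TPM, with changes of -2.70, which passed, and -0.80, which did not.

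Cacybp and Sugt1, which bind S100a6, had log2 fold changes of 0.87 and 0.25 at 3 DPI and stayed short of the fold limit. Anxa11, Ahnak and Ager, the receptor for several S100 proteins, had 0.80, 0.81 and 0.83 at 3 DPI and did not pass either, and Anxa6 passed at 1.52. The number of S100a10 transcripts per Anxa2 transcript, a ratio chosen after the levels were seen, was 2.72 to 3.45 in control muscle and 1.63 to 1.71 at 3 DPI. It was 1.87 to 2.39 at 7 DPI, 2.44 to 2.80 at 14 DPI and 2.66 to 3.00 at 28 DPI. The ranges at 3 and 7 DPI lay below that of control, and those of 14 and 28 DPI overlapped it. In contralateral muscle the ratio was 2.52 to 2.69, 2.40 to 2.75, 2.61 to 2.74 and 2.16 to 2.56 on the 4 days, so that injured muscle lay below contralateral muscle at 3 and 7 DPI, overlapped it at 14 DPI and lay above it at 28 DPI.

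Of 10 other genes of the S100 family, 9 had values and 7 were high enough to be tested. Against control all 7 rose at 3 and 7 DPI, and 4 and 2 of them at 14 and 28 DPI, beside the same 48.3%, 45.6%, 25% and 21.1% of all genes called higher. S100a3, which lies in the same gene cluster, went from 0.851 TPM in control to 76.0 at 3 DPI and 11.4 at 28 DPI, with log2 fold changes of 5.33 and 2.61. S100a13 and S100a16 were 29.0 and 39.2 TPM in control and rose by 2.26 and 1.82 at 3 DPI. S100b, a Schwann cell gene, rose by 2.14 at 3 DPI and 2.39 at 28 DPI. The neutrophil genes S100a8 and S100a9 went from 1.31 and 2.60 TPM in control to 76.0 and 88.7 at 3 DPI, and were 2.32 and 4.58 TPM at 28 DPI, where their changes of 0.46 and 0.72 did not pass.

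Genes of several cell types were also called higher in the injured muscles, and their part in the levels was not tested. All 8 macrophage and all 8 fibroblast genes rose on every day, while 6, 4, 3 and 0 of 6 neutrophil genes did at 3, 7, 14 and 28 DPI. The macrophage sum in non-repaired injured muscle was 4300 to 5645 TPM at 3 DPI, 576 to 2766 at 7, 381 to 456 at 14 and 217 to 748 at 28 DPI. The fibroblast sum was 4225 to 7203, 6071 to 17124, 4929 to 7036 and 2221 to 3672 TPM, with its highest values at 7 DPI rather than 3 DPI. The neutrophil sum was 87.0 to 285 TPM at 3 DPI and 9.21 to 18.6 TPM at 28 DPI, against 2.02 to 7.94 in control.

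T cell genes rose for 6, 6, 5 and 1 of 6, cell cycle genes for 6, 5, 3 and 2 of 6, endothelial genes for 3, 4, 2 and 1 of 6, and smooth muscle genes for 3, 4, 3 and 2 of 5. These counts stand beside 48.3%, 45.6%, 25% and 21.1% of all genes called higher on the 4 days, which the endothelial shares were near. Schwann cell genes rose for 3, 3, 3 and 5 of 5 tested. Slow fiber genes moved both ways, with 2, 3, 2 and 3 of 8 higher and 3, 1, 0 and 0 lower. T cell genes summed to 91.5 to 108 TPM at 3 DPI against 0.89 to 2.23 in control.

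The genes most like each member over the 114 muscles were ranked by Pearson r of log2(TPM + 1) among 8357 genes, as a description in which all genes share the groups and libraries. S100a1 was nearest to Acat1 (r = 0.95), Dnajc4, Chchd10, Ndufb11 and Ndufb4, of which Acat1, Chchd10 and both Ndufb genes encode mitochondrial proteins. S100a4 was nearest to S100a10 (r = 0.991), Nfkbie, Sirpa, Emp1 and Tgfb1, and S100a6 to Ifitm2 (r = 0.991), Anxa1, Clic1, Crip1 and Tagln2. S100a10 was nearest to Anxa5 (r = 0.995), Anxa1, Slc25a24, S100a4 and Fcgrt, and S100a11 to Sh3bgrl3 (r = 0.996), Ppib, Glb1, Dap and Anxa5. Annexin A1 thus stood among the 5 nearest genes of S100a6 and S100a10, and annexin A5 among those of S100a10 and S100a11.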

How the data were processed

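RNA-seq libraries of TA muscle were analysed from one gene-level table in which the authors deposited TPM for 138 libraries. Reads had been assigned to annotated rat transcripts by pseudoalignment in kallisto, and the submitters' processing notes also name DESeq. Their versions are not given in the sources used here. Groups came from the labels, and 9 libraries with contradictory labels were left out. Libraries with fewer than 7000 symbols above 1 TPM were dropped as the rule for these genes asks, and repeat libraries of a muscle were averaged. Of 16182 symbols, 1 was incomplete and not used. TPM carries no depth, so no counting interval is given.

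Genes with a group mean of at least 1 TPM (11328) were fitted on log2(TPM + 1) in limma 3.58.1 (R 4.3.3) with 31 groups, 83 residual degrees of freedom and a mean-variance trend. A pseudocount of 1 understates the change of low genes. A gene was called at a Benjamini-Hochberg adjusted p under 0.05 over all genes tested and a log2 fold change beyond 1. The script was tested on simulated data. Ratios within a muscle were compared with two-sided exact permutation tests in scipy 1.17.1. P-values measure the spread between muscles, some of which share a rat. The 5 genes and all lists were chosen with earlier results of these data known. Named genes were the 5 members, the genes of the lists and the 5 genes of at least 5 TPM most like each member. Alternatives covered the pseudocount, the filter, size factors, kept libraries, rats as blocks, ranges of rat numbers and each muscle left out.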

Additional observations from a re-analysis of the deposited data

Results flagged for a closer look

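Of 80 tests of a group of 4 to 10 muscles for a single muscle far from the others, 7 marked a muscle, where chance gives about 1 in 20. S100a1 was 98.87 TPM in the left control muscle of rat TS4.038, below the other 3 control muscles. It was 72.03 TPM in the grafted muscle of running rat TS5.027 at 7 DPI, the highest of that group. S100a4 was 2181.75 TPM in the grafted muscle of rat TS5.023 at 7 DPI, and 1010.26 TPM in the non-repaired muscle of running rat TS5.134 at 14 DPI, each the highest of its group. S100a10 was 510.22 TPM in the non-repaired muscle of rat TS5.137 at 14 DPI, again the highest. S100a6 was 205.44 TPM and S100a11 was 114.21 TPM in the contralateral muscle of the grafted rat TS5.127 at 7 DPI, so that 1 muscle gave 2 of the 7.

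The 9 libraries with contradictory labels entered no comparison, and they were set beside control muscle only by level. S100a4 was above the highest control muscle in 7 of the 9, S100a6 in 9, S100a10 in 8 and S100a11 in 9.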

How the results depend on the processing

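Of the 5020 values of single members recomputed under another setting, 4843 kept their direction and their side of the thresholds. Another 116 changed direction without a call in either fit, 40 lost a call, 21 gained one and 0 changed direction with a call. The 19 calls against control were 19 in every fit without 1 muscle, 20 with size factors and 18 with the sparse libraries kept, and the 17 against contralateral muscle were 17, 19 and 15. The 4 calls in contralateral muscle were 0 with size factors, 1 with all mapped libraries kept, 6 with a covariate for the range of rat numbers and 0 to 5 without 1 muscle. The 16 calls between days were 9 with all mapped libraries kept. The 0 calls of running in contralateral muscle were 0 to 2 without 1 muscle. The cause of these shifts was not tested. In all, 94 muscles were left out in turn. The injured groups of 6 to 8 running muscles and the contralateral muscles of running grafted rats were not left out.

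Both muscles of many rats were measured, so rat was also fitted as a replicate block. The within-rat correlation was 0.0260. Residuals of 36 same-rat pairs correlated at 0.0722 on average. The block changed no call: the counts stayed at 19 for injury relative to control, 17 each for injury and for grafted injury relative to the opposite leg, 4 for the opposite leg itself, 16 between days and 0 for the others. Without counts, the depth behind single values is unknown.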

Other observations

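In the 9 libraries with contradictory labels, the values of 2 members were as follows. The library titled as a contralateral sample of rat TS5.011, whose labelled day differs from that of the rat's other libraries, held 98.09 TPM of S100a4 and 131.52 TPM of S100a11. The 4 libraries of rats TS5.077 to TS5.080 titled as injured held 49.86, 40.12, 37.66 and 34.59 TPM of S100a4, and 77.71, 63.61, 73 and 78.6 TPM of S100a11. The 4 titled as controls of the same rats held 358.15, 505.46, 533.27 and 565.38 TPM of S100a4, and 227.4, 251.02, 247.85 and 396.79 TPM of S100a11. Cd68, a macrophage gene, was 1.64 to 3.08 TPM in the 4 titled as injured and 12.92 to 26.81 TPM in the 4 titled as controls, and Acta1 was 46290 to 58225 TPM and 38266 to 42937 TPM. The labels of these 8 libraries give the opposite injury state to their titles.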
